A study of Mus musculus with 4 samples.

Results

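Here 9 transcription factors outside the Hox clusters were followed as genes of body position: Foxf1, Foxf2, Nkx2-3, Tcf21, Gata6, Hand2, Pitx1, Tbx15 and Twist2. They were chosen by name, with earlier results of these data known, as 9 of the 16305 genes in the deposited tables. Tbx15 had no row in the table of tumour 1. The cells were sorted cancer-associated fibroblasts (CAFs), stromal cells of a tumour, from 4 untreated tumours. The labels call the tumours APTKA orthotopic tumours and place them in the colon of female C57BL6J mice. Each tumour had 1 plate of 384 wells, with 1 sorted cell intended per well. There was 1 group, so contrasts were made between kinds of well within tumours; whether a tumour came from 1 mouse, which gate was used in the sort and how old the mice were, these sources do not give.

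Fibroblasts keep a record of where in the body they arose, in the form of transcription factors that stay active after development. Foxf1 and Foxf2 are forkhead factors that Hedgehog signals from the gut lining switch on in the surrounding mesenchyme, and Nkx2-3 is a homeodomain factor of gut and spleen mesenchyme. Tcf21 is a helix-loop-helix factor of visceral mesenchyme, Hand2 a related factor of heart, limb and gut mesenchyme, and Gata6 a zinc-finger factor of heart and endoderm-associated tissue. Pitx1 is a homeodomain factor best known for specifying the hindlimb, Tbx15 a T-box factor of skin and limb mesenchyme, and Twist2 a helix-loop-helix factor of dermis.

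Foxf2, Nkx2-3 and Tcf21 are shown with their promoters because these 3 genes were among those lowest in wells with Hoxc transcripts, as given further on. The sequences run from 250 bases before to 50 bases after the gene start, on the strand of the gene, and are RefSeq's for GRCm38.p6. Foxf2 lies at chr13:31625566-31625865 on the plus strand, Nkx2-3 at chr19:43612075-43612374 on the plus strand, and Tcf21 at chr10:22820094-22820393 on the minus strand. Capitals mark the motif matches.
Foxf2: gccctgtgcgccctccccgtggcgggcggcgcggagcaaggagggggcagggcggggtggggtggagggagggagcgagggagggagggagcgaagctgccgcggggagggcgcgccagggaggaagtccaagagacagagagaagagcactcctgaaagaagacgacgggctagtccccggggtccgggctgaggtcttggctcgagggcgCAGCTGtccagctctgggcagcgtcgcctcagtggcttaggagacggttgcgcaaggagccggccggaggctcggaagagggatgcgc
Nkx2-3: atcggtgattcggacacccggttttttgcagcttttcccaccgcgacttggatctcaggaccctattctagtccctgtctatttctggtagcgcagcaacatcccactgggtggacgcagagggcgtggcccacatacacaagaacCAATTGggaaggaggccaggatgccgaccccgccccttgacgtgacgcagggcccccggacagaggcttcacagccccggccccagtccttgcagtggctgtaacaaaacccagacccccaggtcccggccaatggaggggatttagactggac
Tcf21: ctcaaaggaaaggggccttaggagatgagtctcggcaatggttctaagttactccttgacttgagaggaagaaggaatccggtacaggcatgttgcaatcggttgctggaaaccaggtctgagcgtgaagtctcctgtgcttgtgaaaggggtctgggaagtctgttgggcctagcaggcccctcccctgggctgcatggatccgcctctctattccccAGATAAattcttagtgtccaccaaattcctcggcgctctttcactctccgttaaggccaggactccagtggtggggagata
Motifs of 7 families were searched on both strands. The forkhead motif was spelled GTAAACA, the NKX2 motif CACTTNA, the bicoid-type motif TAATCC, the T-box motif GGTGTGA and the GLI motif GACCACCCA. The E-box was spelled CANNTG and the GATA motif AGATAA, and an NKX2 match can overlap an E-box. The E-box had 1 match each in Foxf2 and Nkx2-3, at 38 and 104 bases before the start, and lies in 72.3% of all 32851 promoters of that length. The GATA motif had 1 match in Tcf21, at 31 bases before the start, and lies in 11.2% of promoters. The other 5 motifs were in 3.65%, 11.5%, 7.06%, 3.98% and 0.253% of promoters in the order listed, and none of these 3 windows held one. Promoters were matched for 5 of the 9 genes, Hand2 and Twist2 among them; Foxf1, Gata6, Pitx1 and Tbx15 are named only.

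Kept wells held 1000 or more transcripts, spike-ins not counted, of which no more than 30% were mitochondrial; there were 43, 250, 243 and 204 wells in tumours 1 to 4. The table of tumour 1 carries another run code than those of tumours 2 to 4, so tumour and run cannot be told apart there. Tumour 1 stood apart: 87 of its 130 wells with enough transcripts were over the mitochondrial limit, against 5, 7 and 14 wells in tumours 2 to 4, and spike-ins made up 44.0% of its counts, against 5.54 to 8.59%. The ribosomal RNA gene Rn45s took 3.55 to 23.1% of transcripts across tumours. Median depth per kept well was 5552, 8516, 8108 and 9475 transcripts. Wells were classed by fixed markers, none of them one of the 9 factors, into 16 Kit-rich wells (Kit and Ano1, known from interstitial cells of Cajal), 36 smooth muscle wells, 29 mural wells and 613 fibroblast wells. A further 41 wells were rich in red cell transcripts, 4 carried other cell type markers and 1 had no class. In the fibroblast wells the 6 fibroblast markers (Col1a1, Col1a2, Col3a1, Dcn, Lum and Pdgfra) summed to 404 to 570 transcripts per 10000, and the immune markers to at most 0.0328. The summed fibroblast markers reached 86.9 to 90.5 in Kit-rich wells, 97.3 to 168 in smooth muscle wells and 182 to 291 in mural wells, so these wells also held fibroblast transcripts, whose part in the contrasts below was not tested. The marker sum was within 2 times the threshold in 2 Kit-rich wells, 12 smooth muscle wells and 6 mural wells, while 3, 9 and 89 other wells had between 50% of it and the threshold itself.

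In the fibroblast wells all 9 factors were found, and Tcf21, Foxf1, Pitx1 and Twist2 were the most abundant. Foxf1, the forkhead factor of gut mesenchyme, had 1.21, 0.913, 1.33 and 1.12 transcripts per 10000 in tumours 1 to 4, or 1.14 ± 0.177 (SD, n = 4), and was found in 305 of 613 wells. The 4 tumours were close together for this gene. Tcf21, the visceral mesenchyme factor, had 8.33, 0.632, 1.65 and 1.05 transcripts per 10000. Tumour 1 was far above the other three, with 221 transcripts in 18 of its 30 wells. Pitx1 had 2.79, 0.490, 1.24 and 0.673 transcripts per 10000 and was found in 217 wells, again highest in tumour 1.

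Nkx2-3 had 1.58, 0.340, 0.620 and 0.351 transcripts per 10000 and Foxf2 had 0.717, 0.201, 0.509 and 0.338, found in 166 and 154 wells. Twist2, the dermis factor, went the other way in tumour 1, with 0.226 transcripts per 10000 against 0.761, 1.11 and 1.02 in tumours 2 to 4, and was found in 245 wells. Tbx15 had 0.250, 0.152 and 0.244 transcripts per 10000 in tumours 2 to 4 and was found in 82 wells. Gata6 had 0.113, 0.149, 0.0657 and 0.149, found in 43 wells, and Hand2 had 0, 0.0625, 0.0657 and 0.0454, found in 28 wells, so Hand2 was the scarcest. By mean level the order was Tcf21, Pitx1, Foxf1, Twist2, Nkx2-3, Foxf2, Tbx15, Gata6 and Hand2, where the ranges over tumours of neighbouring pairs overlapped. The exception was Gata6 and Hand2, whose ranges met at 0.0657 without overlapping; Tbx15 entered this order at 0 in tumour 1, where it has no row. These are counts of tagged transcripts, so capture can differ between genes. Thinned to 3000 UMIs (unique molecular identifiers) per well, Foxf1 was found in 136 of 525 fibroblast wells, against 0 of 8 red-cell-rich wells, in which 1 Tbx15 transcript was the only one of any factor. Before thinning the median depths were 9539 and 2403 transcripts.

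**Figure D1:**
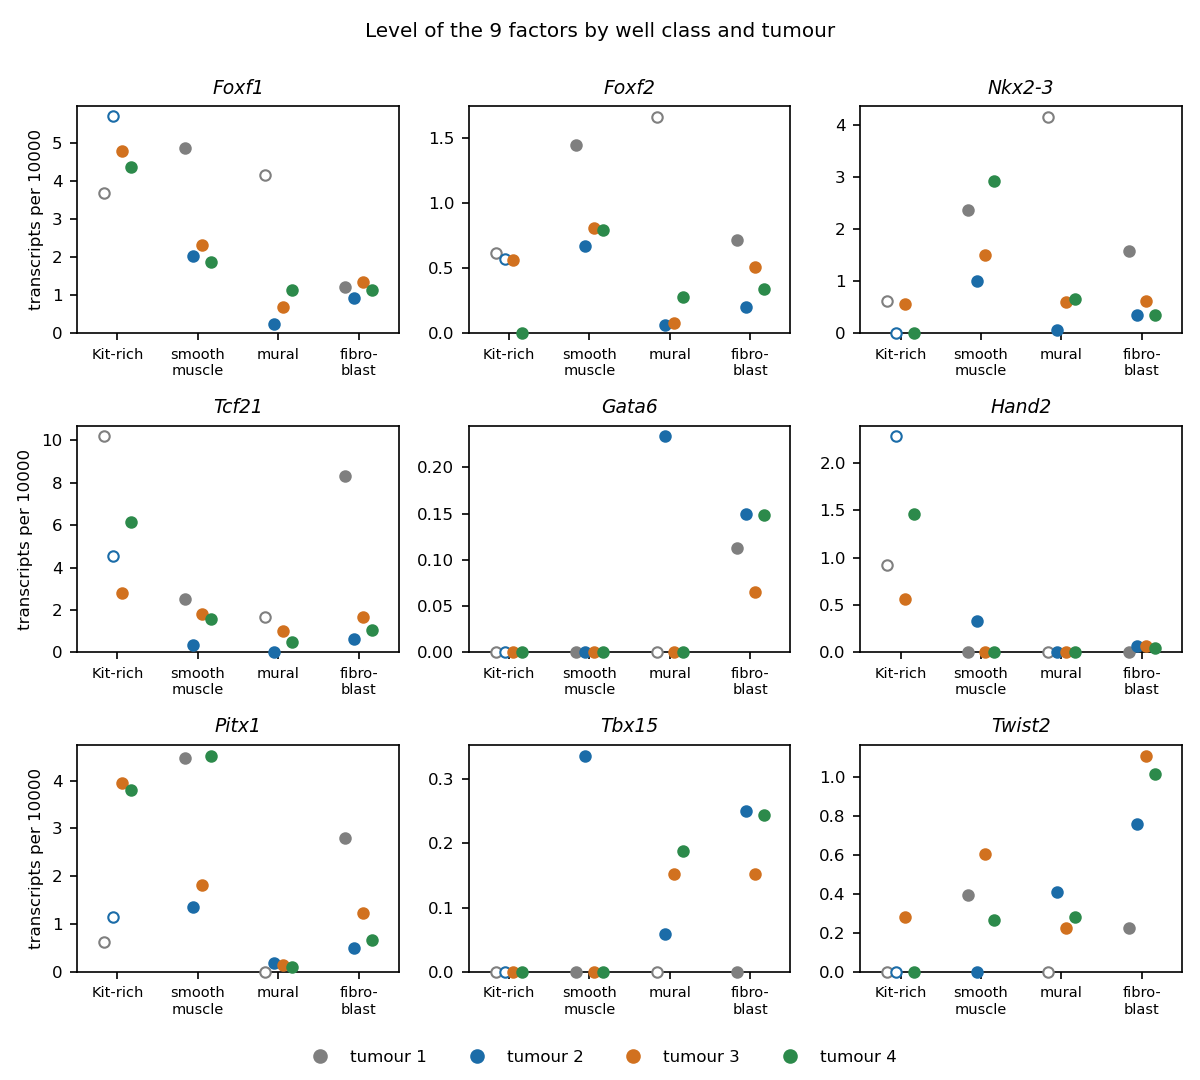
Transcripts per 10000 of each factor (y axis, own scale per panel) in the Kit-rich, smooth muscle, mural and fibroblast wells of tumours 1 to 4; each point is the sum over a tumour's wells of that class, and open points rest on fewer than 5 wells. Kit-rich wells of tumours 3 and 4 had 4.79 and 4.38 transcripts of Foxf1 per 10000, above the 1.33 and 1.12 of the fibroblast wells.

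The factors Foxf1, Foxf2, Nkx2-3, Tcf21 and Pitx1 were found together in fibroblast wells more often than their separate frequencies predict. Tbx15 was found with each of these 5 less often than predicted, though 22 of its 82 wells also had Foxf1. For each of the 36 pairs, the wells with both were set against the number expected from the shares within 3 equal strata of well depth, with no test, since wells of a tumour are not replicates and factors found in 1 well share its depth. A pair was called above or below only where the sign was the same in each tumour with an expected number of at least 2. By that rule 9 pairs were above, 9 below and 2 were too rare to call. Signs can match by chance over so few tumours, and no pairs of other genes were counted for comparison. Nkx2-3 with Pitx1 was found in 118 wells against 70.1 expected, 1.68 times, and Nkx2-3 with Foxf2 in 82 against 49.9, 1.64 times. Foxf1 with Pitx1 was found in 162 wells against 120.5 expected, and Nkx2-3 with Tcf21 in 120 against 78.8. Foxf1 with Tcf21, Foxf2 with Pitx1 and Tcf21 with Pitx1 were above in tumours 2 to 4 and equal to expectation in tumour 1, so they were not called. All 5 genes were found in 49 wells, and 89 of the 613 wells had none of the 9 factors.

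Tbx15, the factor of skin and limb mesenchyme, shared few wells with Nkx2-3, Tcf21, Pitx1 and Foxf2. It was found with Tcf21 in 3 wells against 31.8 expected, with Nkx2-3 in 2 against 21.6, with Pitx1 in 3 against 28.1, with Foxf2 in 7 against 21.4 and with Foxf1 in 22 against 44.4. Each of these 5 pairs was below expectation in tumours 2, 3 and 4. In tumours 2, 3 and 4, 4 of 33, 2 of 22 and 0 of 27 wells with Tbx15 also had Nkx2-3, Tcf21 or Pitx1, against 107 of 183, 117 of 180 and 86 of 138 wells without Tbx15. The 0 of 27 wells allow a share of up to 11.1%. At 3000 UMIs per well 20 of 525 fibroblast wells had Tbx15, and these pairs became too rare to call.

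Gata6 was below expectation with Nkx2-3 (9 wells against 12.0), Tcf21 (13 against 16.7) and Tbx15 (7 against 9.70), all by few wells. Twist2 was found with Foxf1 in 137 wells against 137 expected and with Tbx15 in 47 against 43.6, and was called below with Hand2 only (11 against 14.4). Hand2 was above expectation with Nkx2-3 (16 against 8.76) and Tcf21 (17 against 12.2).

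**Figure D2:**
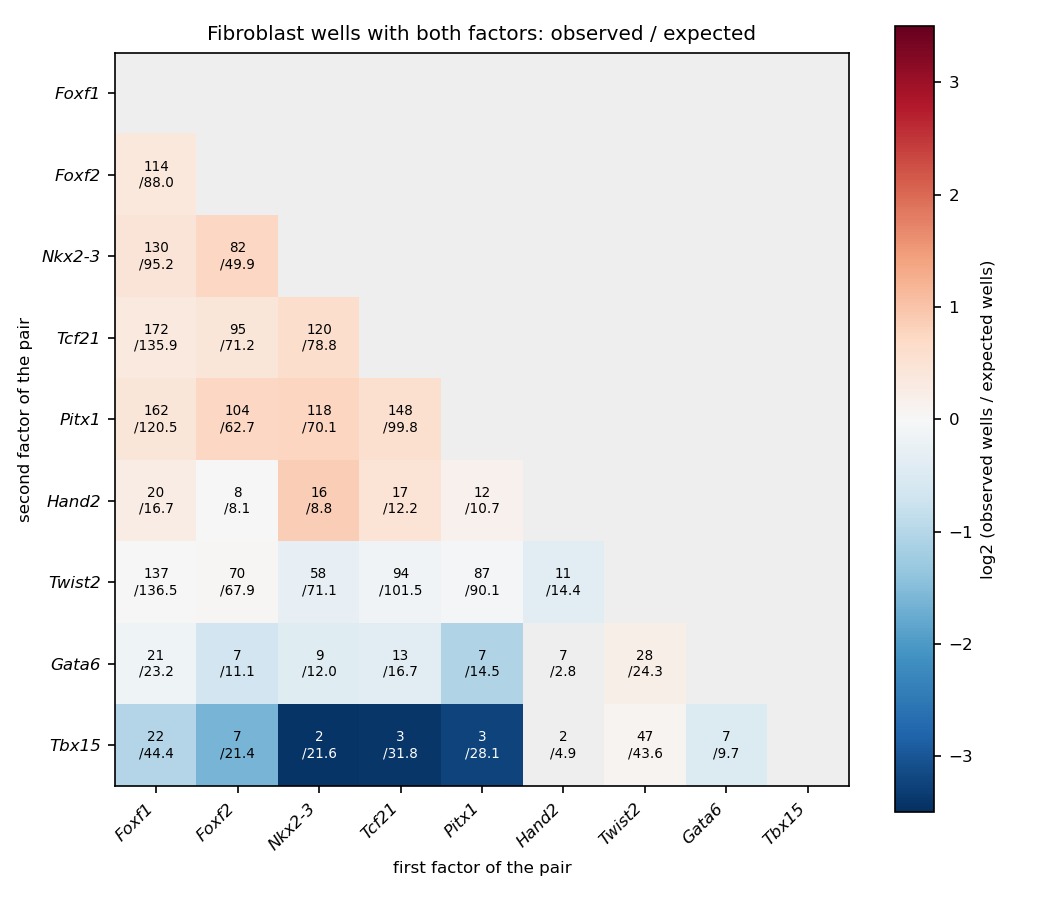
Each square is a pair of factors, with the number of fibroblast wells holding both over the number expected within 3 strata of depth, coloured by log2 of observed over expected; grey squares have an expected number under 5. The row of Tbx15 is darkest blue with Nkx2-3 (2 wells against 21.6 expected), Tcf21 and Pitx1, and the squares among Foxf1, Foxf2, Nkx2-3, Tcf21 and Pitx1 are red.

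**Figure D3:**
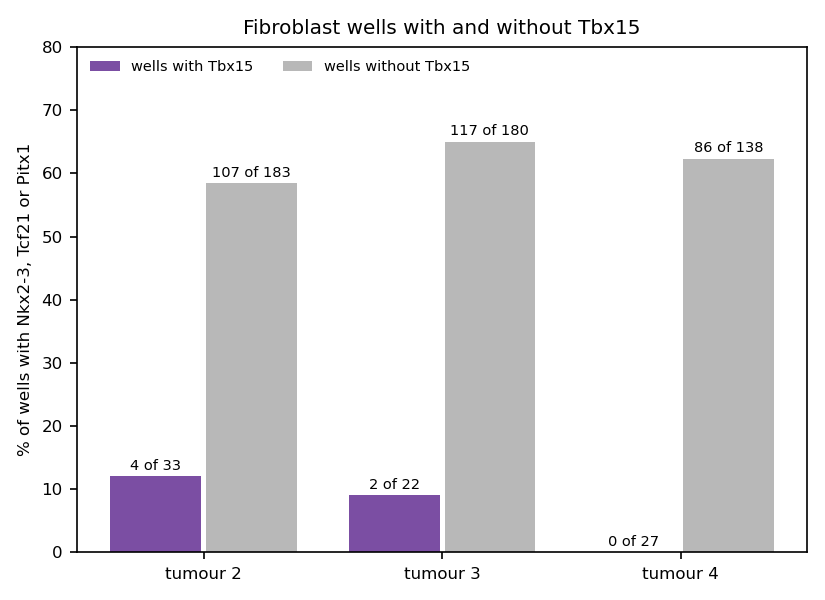
Percent of fibroblast wells with at least 1 transcript of Nkx2-3, Tcf21 or Pitx1 (y axis), in wells with Tbx15 (left bar) and without it (right bar) in tumours 2 to 4, with the counts of wells above the bars. The shares were 12.1%, 9.09% and 0% with Tbx15, against 58.5%, 65.0% and 62.3% without it.

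Wells with Hoxc transcripts, set by at least 2 transcripts of Hoxc4 to Hoxc13 in sum, had less of the gut set and more Tbx15 than wells with none. Hoxc genes are known to be active in trunk and limb fibroblasts, and none is among the 9 factors. There were 38, 37 and 34 Hoxc wells in tumours 2 to 4 and 157, 148 and 112 Hoxc-free wells; tumour 1 had 1 Hoxc well and did not enter. Tcf21 had 0.0116, 0.0196 and 0.0279 transcripts per 10000 in Hoxc wells of tumours 2 to 4, against 1.05, 2.29 and 1.64 in Hoxc-free wells. Tcf21 counted 4 transcripts in the Hoxc wells, against 795 in the Hoxc-free wells.

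Pitx1 had 0.0231, 0.0786 and 0.0559 transcripts per 10000 in Hoxc wells, against 0.781, 1.67 and 1.06 in Hoxc-free wells. Nkx2-3 had 0.0347, 0.0196 and 0 in Hoxc wells, against 0.528, 0.862 and 0.531 in Hoxc-free wells. Foxf1 had 0.196, 0.432 and 0.237 in Hoxc wells, against 1.38, 1.63 and 1.65 in Hoxc-free wells, the smallest fold difference of the 5. Foxf2 averaged 0.0422 ± 0.0361 in Hoxc wells and 0.488 ± 0.175 in Hoxc-free wells (SD, n = 3 each).

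Tbx15 ran the opposite way, with 0.405, 0.590 and 0.629 transcripts per 10000 in Hoxc wells against 0.147, 0.0236 and 0.0359 in Hoxc-free wells. It was found in 16, 16 and 19 of the Hoxc wells of those tumours, against 12, 4 and 3 of the Hoxc-free wells. By edgeR's quasi-likelihood test on sums per tumour, with Benjamini-Hochberg adjustment over 8609 genes, 1 of the 8 factors tested was higher (Tbx15) and 5 were lower (Foxf1, Foxf2, Nkx2-3, Tcf21 and Pitx1), where 5.59% of all genes tested were called (2.07% higher and 3.52% lower). The log2 fold changes of Hoxc over Hoxc-free wells were -6.21 for Tcf21 (SE 0.32, adjusted p 8.57e-06), -4.43 for Pitx1 (SE 0.29, 2.31e-05) and -4.88 for Nkx2-3 (SE 0.46, 0.00031). They were -2.44 for Foxf1 (SE 0.24, 0.000389), -3.35 for Foxf2 (SE 0.40, 0.00112) and 3.0 for Tbx15 (SE 0.50, 0.00642). Each was the same way in 3 of 3 tumours. Because the factors were chosen with earlier results of these data known, their share called beside that of all genes is a description only.

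Twist2 had 0.566, 0.550 and 0.797 transcripts per 10000 in Hoxc wells against 0.816, 1.36 and 1.17 in Hoxc-free wells, a log2 fold change of -0.72 (SE 0.21) that missed the threshold in edgeR (adjusted p 0.0874). Gata6 did not pass either, at -0.75 (SE 0.42, adjusted p 0.488). Hand2 was too scarce to be tested, with 1 transcript against 43. Hoxc wells were deeper in tumours 2 and 4, with medians of 20463, 8024 and 17641 transcripts against 7013, 9041 and 8952. Thinned to 3000 UMIs, 1.87% of 107 Hoxc wells had Tcf21 against 36.2% of 367 Hoxc-free wells, and 11.2% had Tbx15 against 1.09%. The share with Twist2 was 21.5% against 18.5% at that depth, so its order there was not the order of its levels.

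**Figure D4:**
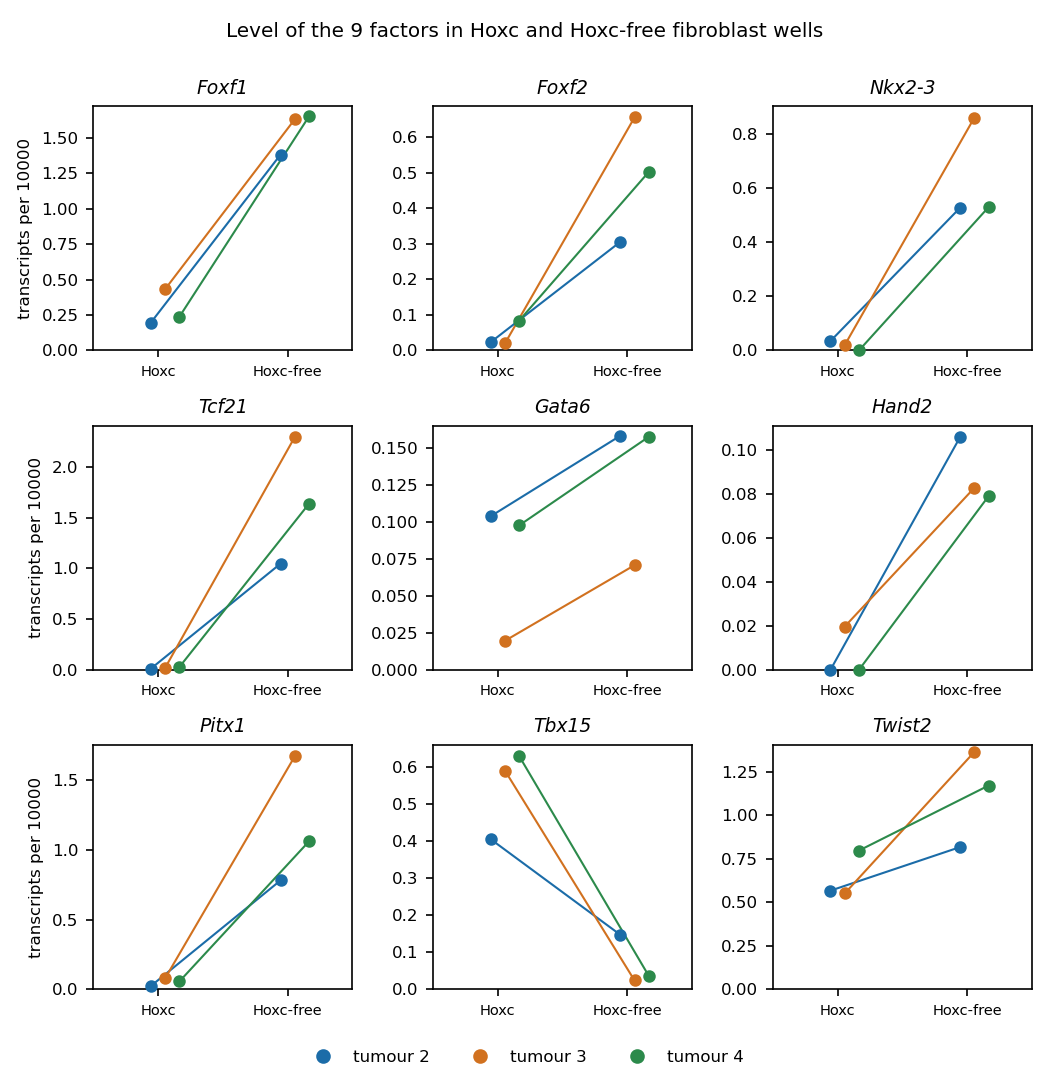
Transcripts per 10000 of each factor (y axis, own scale per panel) in Hoxc wells (left) and Hoxc-free fibroblast wells (right), with 1 line for each of tumours 2 to 4. Tcf21, Pitx1, Nkx2-3, Foxf1 and Foxf2 are lower in Hoxc wells in all 3 tumours, and Tbx15 is higher.

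Of a list of 79 other positional factors, 31 were tested in this contrast, 11 were higher and 4 lower in edgeR (9 were called in DESeq2), with a median log2 fold change of 0.08 against 0.00 over all genes. Among those higher was Prrx1, a homeodomain factor of limb mesenchyme, with 3.79 ± 0.907 transcripts per 10000 in Hoxc wells and 1.42 ± 0.191 in Hoxc-free wells (SD, n = 3 each). Gata2, Ebf1, Zfhx4 and Twist1 were also higher, with log2 fold changes of 2.80, 1.59, 1.32 and 0.92. Foxp2 and Tbx2 were lower, at -2.94 and -2.63. This list was also chosen with earlier results known, so its share called is a description only. Of 12 Hedgehog genes, 8 were tested and 0 passed in edgeR, 0 had an unadjusted p under 0.05, and 0 passed in DESeq2. Outside the lists, the genes of smallest p were C77370, Akr1c14, Mest, Lrrc15 and Myoc among those higher and Il11, Mmp13, Mmp10, Ereg and Ifitm1 among those lower. Mmp13, a collagenase, had 0.732 ± 0.289 transcripts per 10000 in Hoxc wells and 23.4 ± 5.98 in Hoxc-free wells.

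Wells with Tbx15 or Pitx1 but no Foxf1 or Nkx2-3 were set against the reverse. The first class was a mixture, since Tbx15 and Pitx1 were rarely found together. Over all tumours 59 of its 91 wells had Tbx15 and 33 had Pitx1. The contrast left Tcf21 and Twist2 to be tested, and 0 of these 2 passed in edgeR. There 1.01% of 6067 genes were called (0.379% higher and 0.626% lower). Tcf21 had an unadjusted p under 0.05, and 0 passed in DESeq2. Tcf21 had 0.345, 0.267 and 0.124 transcripts per 10000 in the Tbx15 or Pitx1 wells of tumours 2 to 4, against 0.496, 0.921 and 0.910 in the Foxf1 or Nkx2-3 wells, a log2 fold change of -1.54 (SE 0.38, adjusted p 0.0961 in edgeR). It was lower in 3 of 3 tumours. With Tbx15 alone as the class, Tcf21, Pitx1 and Foxf2 had -6.96, -6.58 and -2.64; this class was added after the pairs above were seen in the same wells, so these values restate them and test nothing further. In the contrast as planned, with 1 tumour left out, Tcf21 passed in edgeR only without tumour 2, at -2.27 (adjusted p 0.000604). That fit had 4 sums and 1 residual degree of freedom. Its log2 fold change ranged from -2.27 to -1.06 by tumour left out. Of 23 other positional factors tested, Foxp2, a forkhead factor, and Meis2, a homeodomain factor, were lower, at -1.95 and -1.23 in edgeR, while 0 passed in DESeq2. The genes of smallest p outside the lists were Crabp1, Lpl, Apod, Dkk2 and Lrrc15 (higher) and Ptgs2, Wdr92, Ces1d, Bdkrb1 and Tgfbi (lower).

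Kit-rich wells had more Foxf1 than fibroblast wells in all 4 tumours, and Hand2 was found there in a larger share of wells. Foxf1 had 3.70, 5.70, 4.79 and 4.38 transcripts per 10000 in Kit-rich wells of tumours 1 to 4, against 1.21, 0.913, 1.33 and 1.12 in fibroblast wells. Pitx1 had 0.616, 1.14, 3.94 and 3.80 in Kit-rich wells, against 2.79, 0.490, 1.24 and 0.673 in fibroblast wells, so the direction in tumour 1 was opposite. Hand2 had 0.924, 2.28, 0.563 and 1.46 in Kit-rich wells, against 0, 0.0625, 0.0657 and 0.0454 in fibroblast wells, and was found in 7 of 16 Kit-rich wells and 28 of 613 fibroblast wells. Thinned to 3000 UMIs, 3 of 15 Kit-rich wells had Hand2, against 12 of 525 fibroblast wells. Tcf21 had 10.2, 4.56, 2.81 and 6.13 in Kit-rich wells, against 8.33, 0.632, 1.65 and 1.05 in fibroblast wells, higher in 4 of 4 tumours.

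Only tumours 3 and 4 had 5 Kit-rich wells and entered the test, in which 2 of 5 factors tested were higher, where 10.5% of 3216 genes were called (3.89% higher and 6.59% lower). The log2 fold change was 1.63 for Foxf1 (SE 0.45, adjusted p 0.0308 in edgeR) and 1.67 for Pitx1 (SE 0.48, adjusted p 0.0397). Foxf1 passed in 6 of 15 alternatives and Pitx1 in 3 of 15. Without tumour 3 the log2 fold changes were 1.30 for Foxf1 and 1.5 for Pitx1 (adjusted p 0.308 and 0.257), and without tumour 4 they were 1.25 and 1.15 (adjusted p 0.373 and 0.399). Each of these fits had 1 Kit-rich sum, assumed to vary like the other classes. Without tumour 2, Pitx1 had an adjusted p of 0.0795. The median mitochondrial share was 11.9% and 8.85% in Kit-rich wells of tumours 3 and 4, against 6.08% and 5.95% in fibroblast wells. Median depth was 6852 and 7018 transcripts in these Kit-rich wells, against 9041 and 11052 in fibroblast wells, and the part of either in the result was not tested beyond those limits: with at most 15% mitochondrial Foxf1 had 1.28 and Pitx1 1.59 (adjusted p 0.304 and 0.253, 1 Kit-rich sum), and with at least 3000 transcripts 1.34 and 1.63 (0.0613 and 0.0549). Hand2 was too scarce for the test as planned, and where an alternative took it in, its log2 fold change was 3.35 with no filter on low counts (adjusted p 0.0881) and 3.38 in a pairwise fit (0.0681), and it passed in none. Its 7 transcripts against 27 in those tumours gave a ratio of 18.1 with a 95% counting interval of 6.64 to 42.5. Gata6 was found in 0 of 16 Kit-rich wells, which allows a share of up to 18.8%, and Tbx15 in no Kit-rich well of tumours 2 to 4. Twist2 had 1 transcript in the Kit-rich wells, against 517 in the fibroblast wells of tumours 3 and 4, and did not pass (log2 fold change -3.05, adjusted p 0.122), and Tcf21 did not pass either (1.07, adjusted p 0.332).

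Among other positional factors, 3 of 19 tested were higher in Kit-rich wells: Zfhx3, Foxp2 and Foxp1. Zfhx3, a zinc-finger homeodomain factor, had 10.05 ± 0.670 transcripts per 10000 in Kit-rich wells and 1.21 ± 0.135 in fibroblast wells (SD, n = 2 each). Of 5 Hedgehog genes tested, 0 passed in edgeR or in DESeq2, and 1 (Gas1) had an unadjusted p under 0.05 in each. Cd24a, Enpep, Spry4, Pde2a and Fhl2 were higher, and Gpx3, Aebp1, Saa3, Ctla2a and Bgn lower; Aebp1 had 0 transcripts in Kit-rich wells, at least 15.04-fold lower at a floor of 3 counts over the group. The contrasts of Kit-rich, smooth muscle and mural wells shared the fibroblast wells.

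Smooth muscle wells had more Foxf1, Foxf2, Nkx2-3 and Pitx1 than fibroblast wells in 4 of 4 tumours, though Pitx1 was the 1 factor of 5 tested that passed, where 16.8% of 3216 genes were called (7.68% higher and 9.08% lower). Pitx1 had 4.48, 1.35, 1.81 and 4.52 transcripts per 10000 in smooth muscle wells, against 2.79, 0.490, 1.24 and 0.673 in fibroblast wells, a log2 fold change of 1.19 (SE 0.36, adjusted p 0.0313 in edgeR). It passed in 6 of 15 alternatives, and without tumour 4 the log2 fold change was 0.55 (adjusted p 0.495) and without tumour 2 it was 1.17 (0.075). Foxf1 had 4.88, 2.02, 2.32 and 1.86 in smooth muscle wells (1.05, SE 0.35, adjusted p 0.0516) and Nkx2-3 had 2.37, 1.01, 1.51 and 2.92 (1.38, SE 0.47, adjusted p 0.0557), both just outside the threshold. Without tumour 4 Nkx2-3 had 0.75 (adjusted p 0.437). Median mitochondrial share was 7.95%, 10.6% and 10.1% in smooth muscle wells of tumours 2 to 4, against 5.18%, 6.08% and 5.95% in fibroblast wells. Median depth was 2980, 6125 and 3397 transcripts in those smooth muscle wells, against 9227, 9041 and 11052. Tumour 1, also in the test, went the other way in both. Its smooth muscle wells had 12.0% and 14241 transcripts, against 17.4% and 5360 in its fibroblast wells. With at most 15% mitochondrial Foxf1 had 0.50, with smooth muscle sums of tumours 2 to 4. With at least 3000 transcripts it had 0.48, with those of tumours 3 and 4. Leaving out tumour 1 alone gave 0.65, so the limits and the tumours in the test changed together. Gata6 was found in 0 of 36 wells, which allows a share of up to 8.33%.

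Hhip, a Hedgehog-binding antagonist and Hedgehog target, was higher in smooth muscle wells by a log2 fold change of 5.31, as 1 of 5 Hedgehog genes tested. It had 12.5 ± 9.26 transcripts per 10000 in smooth muscle wells and 0.288 ± 0.230 in fibroblast wells (SD, n = 4 each). Tbx2 was higher and Osr2 and Twist1 lower among 19 positional factors tested, of which DESeq2 called 5. Tinagl1, Slc24a3, Tagln, Acta2 and Mylk led the higher genes outside the lists, and Gpx3, Saa3, Igfbp4, C3 and Htra3 the lower.

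Mural wells had less Pitx1, as the 1 factor of 5 tested that passed, where 11.0% of 3216 genes were called (4.29% higher and 6.69% lower). Pitx1 had 0.175, 0.152 and 0.0937 transcripts per 10000 in mural wells of tumours 2 to 4, against 0.490, 1.24 and 0.673 in fibroblast wells. The log2 fold change of Pitx1 was -2.51 (SE 0.58, adjusted p 0.00919 in edgeR). It passed in 14 of 15 alternatives; with at least 10 wells per class, which left 1 mural sum (tumour 2) assumed to vary like the other classes, it was -1.77 with an adjusted p of 0.427. Twist2 (-1.61, adjusted p 0.0771) and Tcf21 (-1.69, adjusted p 0.0938) were lower in 3 of 3 tumours and missed the threshold, and Twist2 passed without tumour 1 (adjusted p 0.0349) and Tcf21 without tumour 3 (0.0145). Hand2 was found in 0 of 29 wells, which allows a share of up to 10.3%. Of 19 positional factors tested, 4 were higher, with Heyl, Nr2f2, Tbx2 and Ebf1, and 6 were lower, among them Osr2, Meis2 and Osr1. Of 5 Hedgehog genes, 0 passed in edgeR or in DESeq2, and 2 (Boc and Gas1) had an unadjusted p under 0.05 in each. Osr2 had 0 transcripts in the mural wells of those tumours, at least 12.3-fold lower. Gcnt2, Tinagl1, Atp1b2, Ptp4a3 and Ndufa4l2 led the higher genes outside the lists, and Saa3, Ctla2a, Cpxm1, Angptl7 and Il1rl1 the lower.

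Within fibroblast wells the factors differed between wells that carried fixed marker pairs or sets of gut fibroblast states, given here as a description with no test and with wells not matched in depth. Over all 613 fibroblast wells Foxf1 was found in 49.8%, Tcf21 in 40.9%, Twist2 in 40.0% and Pitx1 in 35.4%. Nkx2-3 was found in 27.1%, Foxf2 in 25.1%, Tbx15 in 13.4%, Gata6 in 7.01% and Hand2 in 4.57%. There were 74 wells with at least 2 of the telocyte markers Sox6, Bmp5 and Bmp7. Foxf1 was found in 66 of them, Foxf2 in 57, Nkx2-3 in 59, Pitx1 in 67 and Tcf21 in 55. Gata6 was found in 0, which allows a share of up to 4.05%. In 113 wells with Adamdec1 and Wnt4, Pitx1 was found in 94, Foxf1 in 91, Tcf21 in 87, Nkx2-3 in 77 and Foxf2 in 68. Tbx15 was found there in 1. In 53 wells with P2ry1 and Kcnn3, Tcf21 was found in 47, Foxf1 in 27, Nkx2-3 and Pitx1 in 12 each, Hand2 in 10 and Foxf2 in 4. In 80 wells with at least 2 of Pi16, Dpp4 and Ly6c1, Tbx15 was found in 23 (28.75%), Foxf1 in 39 (48.75%) and Twist2 in 49 (61.25%). Those wells were deep, with medians of 19832, 21856 and 23219 transcripts in tumours 2 to 4, against 9227, 9041 and 11052 in all fibroblast wells. By level Twist2 was lower in them, with 0.433, 0.641 and 0.665 transcripts per 10000. All fibroblast wells of those tumours had 0.761, 1.11 and 1.02. Foxf1, though found in a share near that of all fibroblast wells, was also lower by level. It had 0.352 to 0.869 transcripts per 10000 in these marker wells, against 0.913 to 1.33 in all fibroblast wells. In 129 wells with both Mmp13 and Mmp10, a pair chosen after values were seen, Twist2 was found in 76, at 0.997, 1.99 and 1.58 transcripts per 10000 in tumours 2 to 4.

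The genes most like each factor over fibroblast wells of tumours 2 to 4 were ranked by the mean of the 3 within-tumour Pearson correlations of log levels, among 8131 genes found in at least 10% of wells. Wells share depth and library, so these are descriptions. Pitx1 was most like Adamdec1 (mean r 0.558), Col18a1, Tmem176b, Bmp4 and Wnt4, and Nkx2-3 was most like Adamdec1 (0.451), Wnt4, Sept4, Pitx1 and Syt13. Tcf21 was most like Ifitm1 (0.546), Hpse, Ltbp4, Pitx1 and Tmem176b. Foxf1 and Foxf2 were both most like Bmp4 (0.421 and 0.445). Twist2 was most like Il1rl1 (0.416), 9930013L23Rik, Col7a1, Mmp13 and Mmp10. Tbx15 was most like Apod (0.308) and Hoxc10 (0.298), and Gata6 and Hand2 reached at most 0.259 and 0.241.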

How the data were processed

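Single cells from 4 tumours were read by SORT-seq with CEL-Seq2 libraries, per the labels' protocols; BWA and the mm10 build are named in the submitters' processing notes. The authors' deposited values are expected counts: UMIs per gene in each well, raised to allow for saturation of the UMI pool. Undoing this left whole UMIs, to within 0.00486 transcripts. Which program counted reads, on which strand and with which annotation was not given in the sources used here; GENCODE M21 lists genes on the opposite strand over all the factors but Nkx2-3, none of them in the deposited tables, so reads of the 2 strands cannot be told apart.

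Totals exclude spike-ins, and levels are transcripts per 10000. Every well was taken as 1 cell, and no doublets were removed; 11 wells met the rule of more than 1 of the Kit-rich, smooth muscle and mural classes and took the first. Rounded counts were summed per tumour and class (at least 5 wells) and tested by edgeR's quasi-likelihood test (edgeR 4.0.16, R 4.3.3), blocked by tumour, after filterByExpr and TMM; sums held 29720 to 2881211 transcripts in the class fit. The block pairs wells of the same tumour. Class markers, Hoxc genes and the genes that set a contrast were left out of its calls. The scripts were tested on simulated data. DESeq2 1.42.0 was an alternative. Shares have exact Clopper-Pearson intervals at 95%, but for a count of 0 the limit given is the share that 3 would make. For 0 of 16 wells that is 18.8%, against an exact upper limit of 20.6%. Both cover counting error only. With the block, p-values measure how the difference between classes varied from tumour to tumour. edgeR draws the spread of each gene toward that of the other genes tested. A p-value thus does not rest on the variation of its own gene alone. The class fit also shared the spread among its classes, with 13 sums and 6 residual degrees of freedom. The Hoxc fit and the Tbx15 or Pitx1 fit each had 6 sums and 2 residual degrees of freedom. With so few, their p-values lean on the spread of other genes. Whether the tumours came from separate mice is not given.

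The 9 factors and all lists were chosen with earlier results of these data known. Named genes were all 9 factors, at most 8 called positional or Hedgehog genes per contrast, up to 5 most-like genes per factor, and up to 5 genes per direction of smallest p outside the lists; some genes that this rule names are not reported here. Alternatives were other size factors, filters, depth and mitochondrial limits, class thresholds, whole UMIs, no block and each tumour left out. RefSeq promoters came from GRCm38.p6.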

Additional observations from a re-analysis of the deposited data

Results flagged for a closer look

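In fibroblast wells of tumour 1, Tcf21 had 8.33 transcripts per 10000, far from the 0.632 to 1.65 of tumours 2 to 4, whose tables carry another run code. In smooth muscle wells Foxf1 had 4.88 in tumour 1, apart from the 1.86 to 2.32 of the others. Hand2 and Tbx15 each had 0.336 in smooth muscle wells of tumour 2, from 1 transcript each, and 0 in the others, where Tbx15 in tumour 1 is a missing row taken as 0. Each was the highest sample by a gap beyond Dixon's limit for 4 samples. For Hand2 and Tbx15 all other values were 0, so the gap was the whole range and had to pass that limit. Of the 17 sets of values examined, chance alone marks about 1 in 20, which does not hold for sets with such zeros.

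The 113 wells with enough transcripts but over the mitochondrial limit were not used above. They held 48 transcripts of Pitx1, 17 of Nkx2-3, 7 of Tcf21 and 5 of Foxf1, above the 3 counts that a count of 0 allows. Of the Pitx1 transcripts, 46 came from 25 of the 87 such wells of tumour 1, at 2.62 per 10000, against 2.79 in that tumour's fibroblast wells. Tcf21 was at 0.398 in those wells, against 8.33.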

How the results depend on the processing

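The calls in Hoxc wells changed least: each of the 6 factors called passed in 14 of 14 alternatives, though leaving out tumour 1 and asking for 10 wells left that fit as it was, and 8 factors were called with no filter on low counts. The count of all genes called there, 481, was 278 in DESeq2, 825 with no filter and 220 with 3 Hoxc transcripts, and 281 to 531 with 1 tumour left out. The cause of the changes given here was not tested.

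In Kit-rich wells the 2 factors called became 1 with no filter, no replicate block, a halved marker threshold, a pairwise fit, or at least 3 wells per class (chosen after seeing the data). The 1 called was Twist2, lower, with no filter, a halved threshold or the pairwise fit. The count was 0 with whole UMIs, at least 3000 transcripts per well, at most 15% mitochondrial or a doubled threshold, and 0 to 2 with 1 tumour left out. All genes called, 337, became 542 with no filter, 167 at 15% mitochondrial, 570 pairwise and 574 with 3 wells, and 107 (without tumour 4) to 373 with 1 tumour left out. At least 10 wells per class could not be run for Kit-rich wells.

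In smooth muscle wells 1 factor was called, against 2 in DESeq2, with RLE size factors, with whole UMIs and with at least 10 wells. It was 0 with no filter, 3000 transcripts or either other threshold, and 0 to 1 with 1 tumour left out; all genes called, 539, became 886 with no filter, and 429 to 488 by tumour. In mural wells 1 became 3 with no filter or a doubled threshold, 2 with whole UMIs, 3000 transcripts, 15% mitochondrial or the pairwise fit, and 1 to 2 by tumour. All genes called, 353, became 678, 680, 168 and 655 with no filter, a doubled threshold, a halved one and pairwise, and 177 (without tumour 2) to 433 by tumour.

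For Tbx15 or Pitx1 wells, 0 factors became 1 with no filter, 3 with Tbx15 alone (a class drawn from the pairs seen in these wells, so no further test) and 0 to 1 by tumour. All genes called, 61, became 30 in DESeq2, 306 with no filter, 1 with no replicate block, 3 with 2 transcripts for a positive well and 299 with Tbx15 alone. The count was 202 without tumour 2, 0 without tumour 3 and 23 without tumour 4. Of pairs, 9 below became 1 thinned and 4 with 2 transcripts (9 to 12 by tumour), and 9 above became 17 with no depth strata and 5 thinned (10 to 12 by tumour).

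Of single factors, the log2 fold change turned for Tcf21 in Kit-rich wells without tumour 4 (-0.58, in a range by tumour left out of -0.58 to 1.40) and in smooth muscle wells at 3000 transcripts (0.0022) or 10 wells (0.048). It also turned in mural wells for Nkx2-3 without tumour 2 (0.12, range -0.96 to 0.12) and Twist2 with a halved threshold (0.15); none of these had passed. Tumour 1 did not enter the Hoxc and Tbx15 or Pitx1 contrasts. Hand2 and Gata6 had 45 and 98 transcripts in all fibroblast wells, so small differences in them were not detectable at this depth.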
